A study of Homo sapiens with 2 samples.

Results

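The genes described here encode 10 chemokines and cytokines that epithelial cells can make, and all 10 were found by symbol in both deposited tables, among 51640 gene symbols. They were taken from a fixed list of names: the neutrophil chemokine genes CXCL1, CXCL2, CXCL3, CXCL5 and IL8, the chemokine genes CXCL16 and CCL20, and the cytokine genes IL18, IL32 and LIF. RNA was sequenced from 2 libraries of HCT116, an epithelial cell line from a human colon cancer, grown without a named treatment in DMEM with fetal bovine serum, penicillin and streptomycin. The submitters describe the libraries, PJ and PF, as biological replicates of 1 group, there is no control group, and the labels do not say what the letters stand for. A cell line carries no stroma and no leukocytes of the tumour it came from. Levels are given in FPKM, which scales the fragments sequenced from a gene to its transcript length and to the library's mapped total, each with the 95% bounds that the authors deposited; the number of fragments behind them is unknown.

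Chemokines are small secreted proteins that guide leukocytes. CXCL1, CXCL2, CXCL3, CXCL5 and interleukin 8 carry a glutamate-leucine-arginine motif ahead of their first cysteines. They act through the receptor CXCR2, CXCR1 or both, and draw neutrophils into inflamed mucosa. Their genes lie in a cluster of duplicated chemokine genes and are switched on through the transcription factor NF-kappaB when cells sense tumour necrosis factor, interleukin 1 or bacterial products. CCL20 attracts CCR6-bearing lymphocytes and dendritic cells. CXCL16 is made as a membrane-bound protein, is shed by the protease ADAM10 and binds CXCR6. Interleukin 18 is kept in resting intestinal epithelium as a precursor that caspases cleave. Interleukin 32 is a largely intracellular inflammatory cytokine, and LIF signals through LIFR and the shared subunit gp130, encoded by IL6ST.

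The stretches before the starts of the 5 neutrophil chemokine genes are shown because they hold the same 9-base word, GGAATTTCC, which is part of the NF-kappaB binding site in this family. Each run is the 110 bases ahead of the RefSeq start (build GRCh38.p14), written 5′ to 3′ on the gene's strand, with that word in capitals. They come from chr4:73869283-73869392 (plus strand) for CXCL1, chr4:74099196-74099305 (minus) for CXCL2, chr4:74038690-74038799 (minus) for CXCL3, chr4:73998678-73998787 (minus) for CXCL5 and chr4:73740459-73740568 (plus) for IL8, whose RefSeq symbol is CXCL8.
CXCL1: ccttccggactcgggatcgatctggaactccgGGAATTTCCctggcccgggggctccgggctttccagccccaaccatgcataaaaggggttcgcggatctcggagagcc
CXCL2: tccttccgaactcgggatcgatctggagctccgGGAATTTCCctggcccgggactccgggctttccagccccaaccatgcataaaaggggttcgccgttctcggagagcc
CXCL3: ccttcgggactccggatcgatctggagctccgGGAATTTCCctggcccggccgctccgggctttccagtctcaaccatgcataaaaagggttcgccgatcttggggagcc
CXCL5: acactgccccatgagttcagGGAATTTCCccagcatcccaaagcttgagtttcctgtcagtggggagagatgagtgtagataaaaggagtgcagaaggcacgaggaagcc
IL8: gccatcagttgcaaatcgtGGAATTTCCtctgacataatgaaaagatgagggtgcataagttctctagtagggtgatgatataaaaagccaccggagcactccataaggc

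The word lay between bases -78 and -70 in CXCL1 and CXCL3, -77 and -69 in CXCL2, -90 and -82 in CXCL5, and -91 and -83 in IL8, counted back from the start. Searched on both strands, GGAATTTCC was found in the 250 bases before the start in 0.415% of 34943 RefSeq promoter windows. A further G stood ahead of the word in 4 of the 5 stretches, with IL8 the exception, and in 0.143% of all windows. Nearer the start lay the word ATAAAA, close in sequence to the core promoter box that positions RNA polymerase, at bases -30 to -25 in CXCL1, CXCL2, CXCL3 and IL8 and at -31 to -26 in CXCL5, against 14.9% of all windows with a match at any place before the start on either strand. The AP-1 word TGACTCA was found at bases -137 to -131 of IL8 and in no other of the members' windows; 4.22% of all windows hold it on either strand. The shown stretches of CXCL1 and CXCL2 were 93.7% identical, those of CXCL1 and CXCL3 90.0%, and those of CXCL2 and CXCL3 88.4%, while those of CXCL1 and IL8 were 45.0% identical. The members of 1 gene family are not independent examples of a shared word. RefSeq windows were matched for 7 of the 10 members; CXCL16, IL18 and LIF were not among them. CCL20 and the first of the 2 IL32 starts had no GGAATTTCC but matched the broader 10-base NF-kappaB consensus, as 9.95% of all windows do on either strand. A match is a run of letters and was not tested for binding.

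**Figure D1:**
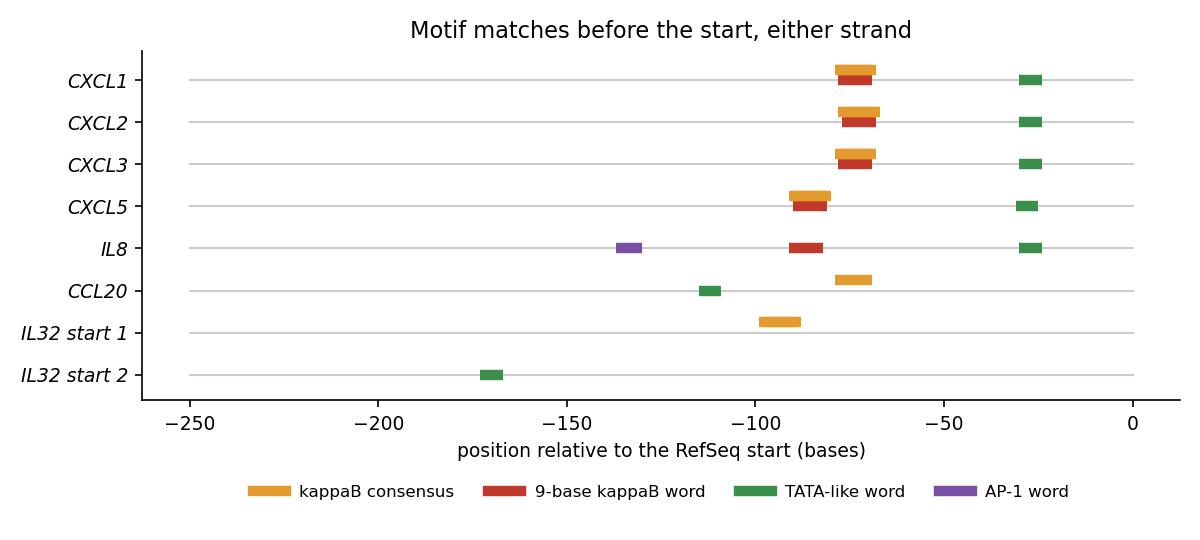
Positions of motif matches in the 250 bases before the RefSeq starts of the members with a window. The horizontal axis is the position in bases and each row is a gene start. Coloured bars mark the 10-base NF-kappaB consensus (above the line), the 9-base word, the core promoter word (labelled TATA-like) and the AP-1 word. Matches on either strand are drawn. The 9-base word lies between -91 and -69 in the 5 neutrophil chemokine genes and is absent from the CCL20 and IL32 rows.

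In these cells the transcripts of the neutrophil chemokine genes were scarce. None of the 5 reached 1 FPKM in both libraries, 4 were below it in each, and their summed level was 2.11 FPKM in PJ and 2.32 FPKM in PF. Over all 10 members 3 passed that threshold in both libraries (CXCL16, IL32 and LIF), beside 27.9% of all 51609 symbols with a value in each library and 57.3% of the 19038 protein-coding ones. IL18 passed in PF alone and IL8 in PJ alone, so each library taken by itself had 4 members at 1 FPKM or more.

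IL8 (ENSG00000169429.6; hg19, chromosome 4, 74606223 to 74609433), the gene of interleukin 8, was the highest of the 5 by its mean. It stood at 1.13 FPKM in PJ (bounds 0.743 to 1.51) and 0.656 FPKM in PF (0.391 to 0.920). The PJ value was the higher, by 1.72-fold without a pseudocount, but the bounds of the libraries overlapped. The other 4 were higher in PF on that scale, also with overlapping bounds. The fold was 2.06 for CXCL5, 1.90 for CXCL3, 1.51 for CXCL2 and 1.36 for CXCL1.

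CXCL3 (ENSG00000163734.4; chromosome 4, 74902306 to 74904524) was at 0.392 FPKM in PJ (0.132 to 0.659) and 0.747 FPKM in PF (0.406 to 1.09). CXCL2 (ENSG00000081041.7; chromosome 4, 74962793 to 74965010) was at 0.322 FPKM in PJ (0.0914 to 0.589) and 0.487 FPKM in PF (0.207 to 0.769). CXCL1 (ENSG00000163739.4; chromosome 4, 74735110 to 74736959) was at 0.197 FPKM in PJ (0 to 0.404) and 0.268 FPKM in PF (0.0499 to 0.490). These genes encode the closely related GRO chemokines, and in each the PF value was the higher with overlapping bounds. Their transcripts share sequence: 5.73% of the 50-base words of CXCL1, 9.24% of those of CXCL2 and 5.26% of those of CXCL3 in GENCODE 29 also occur in another of the 3, so the division of reads among them is uncertain.

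CXCL5 (ENSG00000163735.6; chromosome 4, 74861359 to 74864496), which encodes the neutrophil attractant ENA-78, was at 0.0781 FPKM in PJ (0.0175 to 0.145) and 0.161 FPKM in PF (0.0756 to 0.244). It was the lowest of the 5 in both libraries, and here too the bounds overlapped. The chemokine cluster on chromosome 4 was low along its whole 359 kb from IL8 to CXCL2. Of the 11 other rows that start between these genes, 8 were listed at 0 in both libraries, among them the platelet chemokine genes PF4, PF4V1 and PPBP. CXCL6, a close relative of CXCL5, was at 0.0648 FPKM in PJ and listed at 0 in PF. A single other row, RP11-629B11.4, reached 1 FPKM in both, at 2.65 FPKM in PJ and 1.24 FPKM in PF.

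CXCL16 was the single chemokine gene, among the members and the 25 others listed, at 1 FPKM or above in both libraries. Its gene (ENSG00000161921.10; chromosome 17, 4636821 to 4643217) stood at 17.7 FPKM in PJ (16.6 to 19.0) and 19.8 FPKM in PF (18.6 to 21.0), a mean of 18.7 ± 1.45 FPKM (SD, n = 2). The bounds overlapped, and the level exceeded that of 72.5% of protein-coding symbols in PJ and 77.7% in PF. CXCL16 made up 69.9% of the members' summed FPKM in PJ and 29.8% in PF. ADAM10, which sheds the protein from the membrane, was at 23.5 FPKM in PJ and 27.0 FPKM in PF, and the related sheddase gene ADAM17 at 10.5 FPKM in PJ and 10.3 FPKM in PF. The receptor gene CXCR6 was at 3.20e-22 FPKM in PJ and 0.00976 FPKM in PF, levels at which no transcript can be told from none.

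CCL20 (ENSG00000115009.7; chromosome 2, 228678558 to 228682272) was the lowest member by its mean, at 0.0802 FPKM in PJ (0 to 0.300) and listed at 0 in PF, with bounds of 0. Its receptor gene CCR6 was at 0.239 FPKM in PJ and 0.171 FPKM in PF. The other chemokine genes were as low: none of those 25 reached 1 FPKM in either library, and 9 were at 0 in both. The highest of them was CCL26, an eosinophil attractant gene, at 0.499 FPKM in PJ and 0.433 FPKM in PF, followed, by mean, by the mucosal chemokine gene CXCL17 at 0.306 FPKM in PJ and 0.0636 FPKM in PF.

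**Figure D2:**
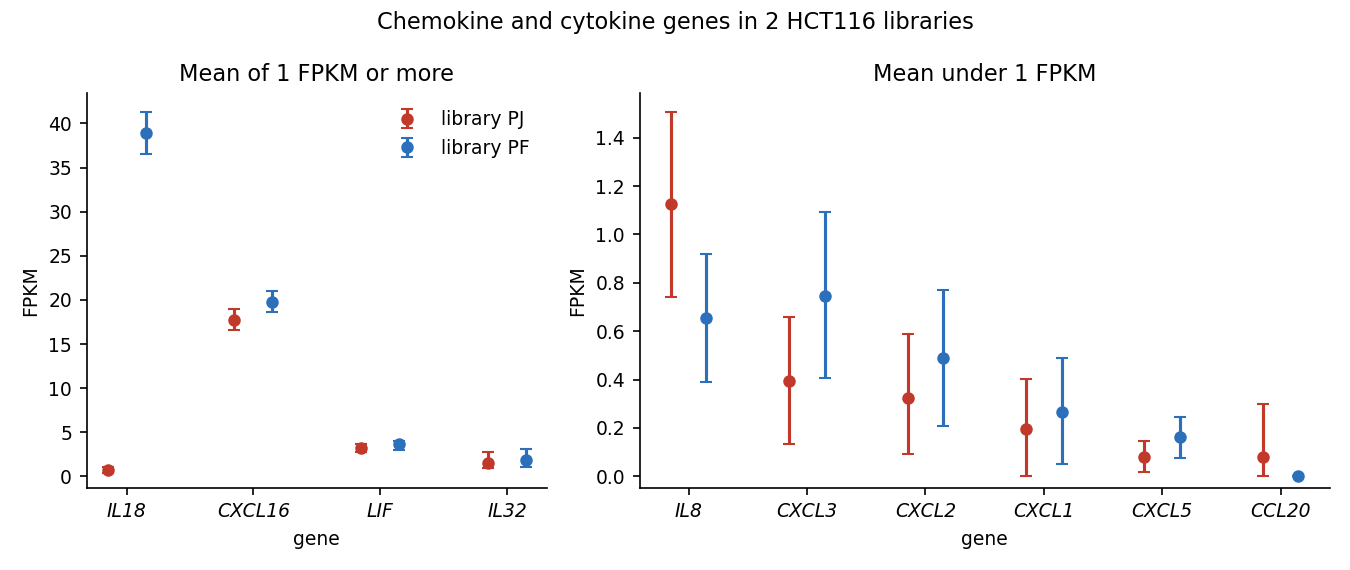
FPKM of the 10 members in library PJ (red, left of each pair) and PF (blue), with genes ordered by mean on the horizontal axis and the authors' 95% bounds as bars; the left panel holds genes whose mean reached 1 FPKM and the right panel the others, on a smaller scale. The bounds of the libraries lie apart for IL18, at 0.701 FPKM in PJ and 38.9 FPKM in PF, and overlap or touch for the other members.

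IL18 set the libraries apart. The gene (ENSG00000150782.7; chromosome 11, 112013974 to 112034840) was at 0.701 FPKM in PJ (0.370 to 1.04) and 38.9 FPKM in PF (36.6 to 41.4). It was 55.4-fold higher in PF, and between 35.3-fold and 112-fold higher when the nearest and the farthest of the bounds are divided. On the log2 scale with a pseudocount of 1 the PJ over PF ratio was -4.55, or -4.80 after dividing out the median ratio between the libraries (1.19-fold, log2 0.25, over the symbols that reached 1 FPKM in each). Each side is 1 library, so this difference has no replicate check and no p-value, and fewer cells with the transcript cannot be told apart from less of it in every cell. In PF the gene stood above 87.3% of protein-coding symbols, and in PJ above 38.3%.

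A difference of 2-fold on this scale was counted among members whose mean reached 1 FPKM. These were 4, and 1 of them, IL18, was at least 2-fold lower in PJ, beside 5.22% of the 15736 symbols with that mean. None of the 4 was 2-fold higher in PJ, beside 10.4% of those symbols. IL18 reached that mean only through PF, being at 0.701 FPKM in PJ, so its place in the count depends on the difference itself. With no filter on the mean it was the single member of the 10 that was 2-fold apart. With bounds apart as a further condition, the 2-fold lower share of all symbols was 4.35%, and IL18 still met it. IL18 had the 55th lowest ratio of the 15736 symbols and the 7th lowest of the 11476 protein-coding ones. The median log2 ratio of the 4 members was -0.16, beside 0.22 over all symbols with that mean; with IL18 at one end, the other 3 lay between -0.17 and -0.14.

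**Figure D3:**
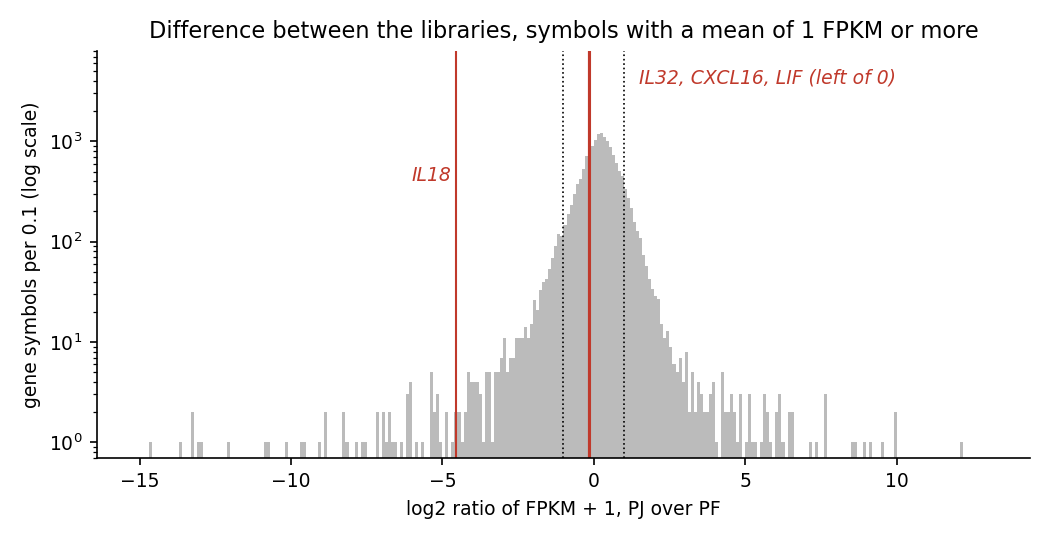
Distribution of the log2 ratio of FPKM + 1, PJ over PF, over the 15736 symbols whose mean reached 1 FPKM (horizontal axis: log2 ratio; vertical axis: symbols per bin of 0.1, on a log scale); red lines mark the 4 members counted and dotted lines the 2-fold limits. IL18 lies at -4.55 in the lower tail, and IL32, CXCL16 and LIF lie close together just under 0.

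The genes around IL18 did not share its low level in PJ. Of 16 other rows that start within 100 kb of the gene, 8 reached a mean of 1 FPKM and 7 of these were higher in PJ. Symbols in general leaned the same way, with a median ratio of 1.19 among those at 1 FPKM or more in both libraries. The share of all symbols higher in PJ was not counted, so the 7 are not read as particular to this locus. None of the 8 was 2-fold apart once the pseudocount was added. C11orf57 came nearest, at 25.3 FPKM in PJ and 12.2 FPKM in PF, a log2 ratio of 0.99. PIH1D2 followed, at 2.98 FPKM in PJ and 1.26 FPKM in PF, a log2 ratio of 0.82. Without the pseudocount both were more than 2-fold higher in PJ. SDHD, a subunit gene of succinate dehydrogenase, was at 95.5 FPKM in PJ and 60.5 FPKM in PF. TIMM8B, for a mitochondrial import protein, was at 56.6 FPKM in PJ and 32.0 FPKM in PF, and PTS, a tetrahydrobiopterin synthesis enzyme gene, at 41.5 FPKM in PJ and 26.5 FPKM in PF. The ribosomal protein pseudogene RPS6P16 was the exception, at 1.84 FPKM in PJ and 2.15 FPKM in PF. A second SDHD row (ENSG00000255292.1; 111957627 to 112071394) overlaps the whole of IL18, and was at 0.144 FPKM in PJ and 0.401 FPKM in PF. The neighbouring genes were picked once the IL18 difference was known.

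**Figure D4:**
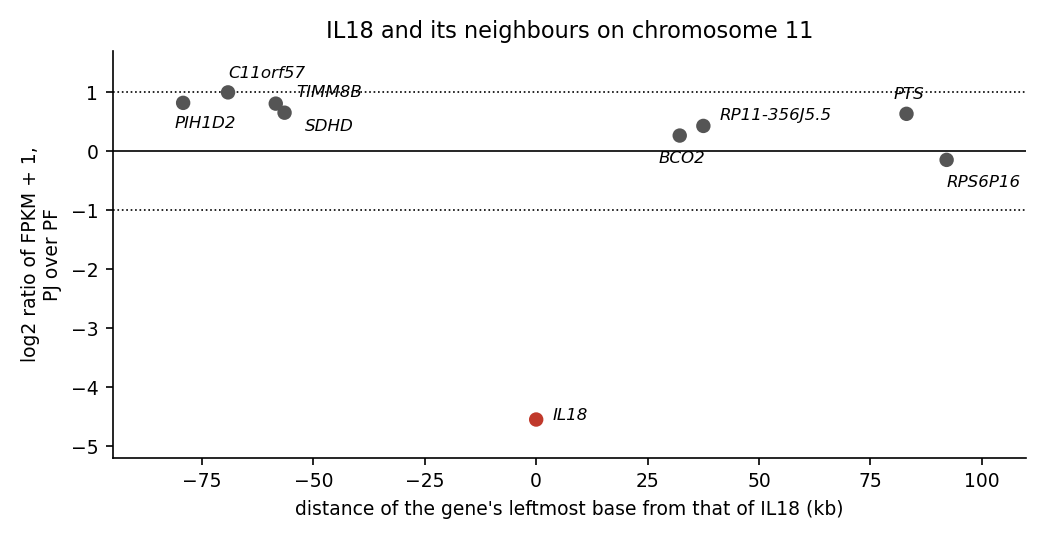
Log2 ratio of FPKM + 1, PJ over PF (vertical axis), against the distance in kb between the leftmost base of each gene and that of IL18 (horizontal axis), for the genes near IL18 whose mean reached 1 FPKM; dotted lines mark 2-fold. IL18 lies at -4.55, and its neighbours lie between -0.15 and 0.99.

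The genes that mature, bind or sense interleukin 18 ranged from a listed 0, for CASP1 in PJ, to 10.3 FPKM, for CASP4 in PF. The inflammasome gene PYCARD was at 1.26 FPKM in PJ and 0.801 FPKM in PF. NLRP1, a further gene of that list, was at 1.71 FPKM in PJ and 1.34 FPKM in PF. CASP1, the caspase gene best known for cleaving the precursor, was listed at 0 in PJ and stood at 0.0363 FPKM in PF, and the inflammasome sensor gene NLRP3 was at 0.00979 FPKM in PJ and 0.0190 FPKM in PF. CASP4, an inflammatory caspase gene, had the same order as IL18. It was at 0.738 FPKM in PJ (0.170 to 1.10) and 10.3 FPKM in PF (7.11 to 10.0), a log2 ratio of -2.71. Its PF estimate lay above its own upper bound, as did both estimates of PTS, KHSRP and TYK2, named elsewhere. The PF estimate of KRT8 lay below its lower bound. CASP4 was the single gene 2-fold lower in PJ among the 6 genes of maturation, shedding and inflammasomes whose mean reached 1 FPKM. Its own mean reached that level only through PF. The share of all symbols with that mean was 5.22%. None of the 6 was 2-fold higher, beside 10.4% of those symbols. The decoy gene IL18BP, whose product binds and blocks the cytokine, was at 2.63 FPKM in PJ (2.05 to 3.22) and 4.02 FPKM in PF (3.44 to 4.65). The receptor gene IL18R1 was at 0.866 FPKM in PJ (0.562 to 1.17) and 1.30 FPKM in PF (0.823 to 1.78), while its partner IL18RAP was at 0.00101 FPKM in PJ and 0.00855 FPKM in PF.

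Epithelial and leukocyte markers were read beside IL18. None of 12 leukocyte marker genes reached 1 FPKM in either library; their summed level was 1.76 FPKM in PJ and 1.54 FPKM in PF, with the granulocyte gene S100A8 listed at 0 in both and the pan-leukocyte gene PTPRC at 0.000256 FPKM in PJ and 0.0734 FPKM in PF. Of 8 epithelial markers 6 passed 1 FPKM in both libraries, beside 57.3% of protein-coding symbols. The summed level of the 8 was 906 FPKM in PJ and 1530.3 FPKM in PF. In PJ 2 of the 6 were 2-fold lower, beside 5.22% of all symbols whose mean reached 1 FPKM. The E-cadherin gene CDH1 was at 1.80 FPKM in PJ and 21.9 FPKM in PF. The keratin gene KRT8 was at 280 FPKM in PJ and 760 FPKM in PF, and EPCAM at 143 FPKM in PJ and 213 FPKM in PF. Of the 6, 5 were lower in PJ and 1 was slightly higher, the keratin gene KRT19. It was at 325 FPKM in PJ and 306 FPKM in PF. The intestinal markers VIL1 and CDX1 missed 1 FPKM in either library, and the intestinal factor gene CDX2 was at 9.32 FPKM in PJ and 12.3 FPKM in PF. The part of this epithelial difference in the IL18 result was not tested. Fibroblast markers passed in 1 of 6 cases, COL1A1, at 2.93 FPKM in PJ and 7.28 FPKM in PF. COL1A1 was also 2-fold lower in PJ, at a log2 ratio of -1.08 with bounds apart, so the markers lower in PJ were not all epithelial. Endothelial markers passed in 0 of 4 cases.

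LIF and IL32 were low but present in both libraries. LIF (ENSG00000128342.4; chromosome 22, 30636436 to 30642840), a cytokine of the interleukin 6 family, was at 3.21 FPKM in PJ (2.71 to 3.70) and 3.63 FPKM in PF (3.02 to 4.06), a mean of 3.42 ± 0.295 FPKM (SD, n = 2). IL32 (ENSG00000008517.12; chromosome 16, 3115298 to 3131908) was at 1.51 FPKM in PJ (0.914 to 2.79) and 1.82 FPKM in PF (1.05 to 3.05), a mean of 1.67 ± 0.224 FPKM (SD, n = 2). Both were a little lower in PJ, with bounds that overlapped; the lower bound of IL32 in PJ was under the threshold.

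Both receptor chains of LIF were transcribed. LIFR was at 5.24 FPKM in PJ (4.73 to 5.75) and 1.77 FPKM in PF (1.49 to 2.04), a log2 ratio of 1.17 that became 0.93, under 2-fold, once the median ratio was divided out. IL6ST, the gp130 gene, was at 3.92 FPKM in PJ and 5.82 FPKM in PF. The downstream genes of gp130 signalling passed in 8 of 8 cases, beside 57.3% of protein-coding symbols, and none was 2-fold apart. The phosphatase gene PTPN11 was at 45.3 FPKM in PJ and 52.3 FPKM in PF. The kinase gene TYK2 was at 30.2 FPKM in PJ and 48.7 FPKM in PF. SOCS1, a feedback inhibitor gene and the lowest by mean, was at 2.13 FPKM in PJ and 1.43 FPKM in PF. LIFR and IL6ST were the only receptor genes of the members, of 9 listed, to pass in both libraries. The neutrophil chemokine receptor genes were far lower, with CXCR1 at 0.0200 FPKM in PJ and listed at 0 in PF, and CXCR2 at 0.000138 FPKM in PJ and 0.184 FPKM in PF; the scavenging receptor gene DARC was listed at 0 in both.

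The order of levels was read in each library by whether the deposited bounds of neighbours overlapped. In PJ it ran CXCL16, LIF, IL32, IL8, IL18, CXCL3, CXCL2, CXCL1, CCL20 and CXCL5, and past CXCL16, whose bounds lay above those of LIF, every neighbouring pair overlapped. In PF it ran IL18, CXCL16, LIF, IL32, CXCL3, IL8, CXCL2, CXCL1, CXCL5 and CCL20, with bounds apart between IL18 and CXCL16, CXCL16 and LIF, and CXCL5 and CCL20. The last of these gaps carries little weight, since CCL20 was listed at 0 in PF with both bounds at 0. Of the 10 members, 8 were lower in PJ, the exceptions being IL8 and CCL20, but IL18 alone had bounds apart. At the level of CCL20 the direction carries no weight. The shares of all symbols lower in PJ, or with bounds apart whatever the fold, were not counted, so neither count is read as particular to the members. The members' summed level was 25.3 FPKM in PJ and 66.4 FPKM in PF, and without IL18 it was 24.6 FPKM in PJ and 27.5 FPKM in PF.

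Most listed genes of the machinery that can switch on the neutrophil chemokine genes were transcribed, while the chemokine genes were low. Of 18 genes for NF-kappaB factors, inhibitors and kinases, 17 passed 1 FPKM in both libraries, beside 57.3% of protein-coding symbols. Whether NF-kappaB was active in these cells was not tested. RELA, the main activating subunit, was at 47.7 FPKM in PJ and 33.8 FPKM in PF, and NFKBIB, an inhibitor gene, at 33.4 FPKM in PJ and 51.1 FPKM in PF. BIRC3, an inhibitor of apoptosis gene that NF-kappaB itself induces, was the lowest, at 0.661 FPKM in PJ and 0.295 FPKM in PF. Of the 17, 2 were 2-fold higher in PJ, beside 10.4% of all symbols, and none 2-fold lower: NFKB2, the gene of the p100 precursor, at 33.4 FPKM in PJ (30.1 to 33.6) and 13.2 FPKM in PF (11.2 to 13.9), and TRAF2, a tumour necrosis factor receptor adaptor gene, at 16.5 FPKM in PJ (15.2 to 18.4) and 5.72 FPKM in PF (4.66 to 7.24). The log2 ratio was 1.28 for NFKB2 and 1.38 for TRAF2, and 1.03 for NFKB2 and 1.13 for TRAF2 after the median ratio was divided out. That scaling also took REL, another activating subunit gene, at 1.63 FPKM in PJ and 3.44 FPKM in PF, just past 2-fold lower, so that 2 genes were then higher and 1 lower; its log2 ratio as deposited was -0.75. The median log2 ratio of the 17 was 0.29, near the 0.22 of all symbols.

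Of 16 inducing receptors and adaptors, 10 passed, close to the 57.3% share of protein-coding symbols. None was 2-fold apart among the 11 whose mean reached 1 FPKM. TLR3, a sensor gene for double-stranded RNA, had a lower mean and was not counted; it was at 0.0237 FPKM in PJ (0 to 0.130) and 1.42 FPKM in PF (1.16 to 1.68), a log2 ratio of -1.24 with bounds apart. With no filter, 1 gene of the list was 2-fold lower in PJ. The highest were the adaptor kinase gene IRAK1, at 92.5 FPKM in PJ and 74.3 FPKM in PF, and LTBR, the lymphotoxin beta receptor gene, at 41.4 FPKM in PJ and 50.4 FPKM in PF. The lipopolysaccharide receptor gene TLR4 was the lowest by mean, at 0.00899 FPKM in PJ and listed at 0 in PF. The ligand gene TNF was at 0.139 FPKM in PJ and 0.135 FPKM in PF, and IL1B at 0.251 FPKM in PJ and 0.404 FPKM in PF; both ligand genes were picked with their values known. All 6 genes for proteins that bind AU-rich elements, which control the decay of many chemokine transcripts, passed, beside that 57.3%. By mean KHSRP was the highest of the 6, at 331 FPKM in PJ and 384 FPKM in PF. HNRNPD followed, at 336 FPKM in PJ and 311 FPKM in PF. ZFP36 was the lowest, at 8.60 FPKM in PJ and 10.4 FPKM in PF. None of the 6 was 2-fold apart.

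Of 21 other cytokine genes 4 passed in both libraries, beside 57.3% of protein-coding symbols, and none of these 4 was 2-fold apart. MIF, the gene of macrophage migration inhibitory factor, stood far above every member, at 860 FPKM in PJ (855 to 889) and 709 FPKM in PF (703 to 733). By mean the next was IL12A, which encodes a subunit shared by interleukins 12 and 35, at 3.65 FPKM in PJ and 3.02 FPKM in PF, in the range of LIF; CLCF1, a cytokine gene of the same family as LIF, was at 2.17 FPKM in PJ and 4.05 FPKM in PF. CSF2, a granulocyte-macrophage growth factor gene, was listed at 0 in both.

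**Figure D5:**
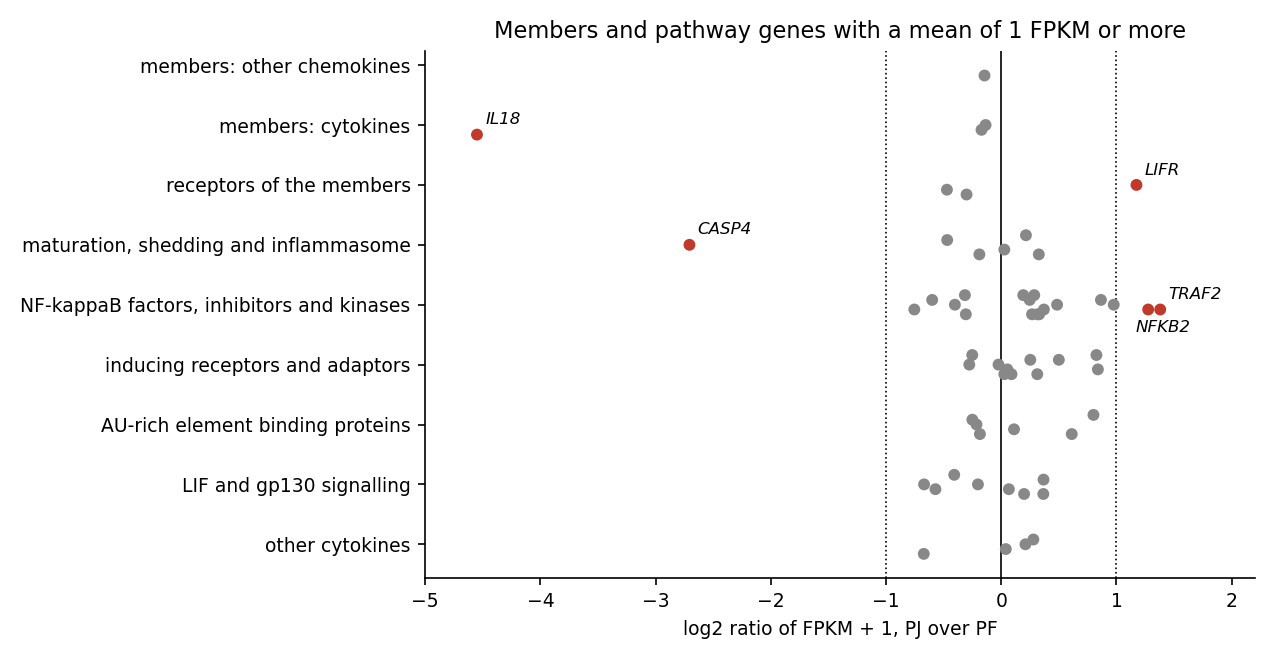
Log2 ratio of FPKM + 1, PJ over PF (horizontal axis), of members and pathway genes whose mean reached 1 FPKM, in rows by list; each point is a gene, dotted lines mark 2-fold, and genes past them are red and named. IL18 and CASP4 lie below -1 and LIFR, NFKB2 and TRAF2 above 1.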

How the data were processed

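Per the labels' protocols, TRIzol RNA went into paired-end TruSeq V2 libraries, which an Illumina HiSeq sequenced. Per the submitters' processing notes, TopHat2 2.0.8b and Cufflinks were used with hg19; the sources used here name no Cufflinks version, annotation or use of strand. FPKM, its 95% bounds and a status code are the values the authors deposited, in a table for each library. FPKM depends on what else a library holds, since very abundant RNAs take fragments from all others, and the bounds cover the estimate within a library and not variation between cultures.

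FPKM of rows sharing a symbol were summed; a symbol with a FAIL row (20 rows in PJ and 23 in PF) was missing, and no member had such a row. Each of the 10 members had 1 row with status OK in both tables, and each estimate lay within its bounds. Starts are counted from 1. Ratios divide PJ by PF after a pseudocount of 1 FPKM was added to each. Gene types and transcripts came from GENCODE 29, matched by identifier for 88.7% of rows, and promoters from RefSeq. No test across samples was possible with 1 library a side. The 2-fold count was tested on simulated libraries with known changes, all larger than 2-fold and placed in genes well above 1 FPKM. The simulation did not cover changes at the 2-fold limit or in genes near 1 FPKM. It is no check of these libraries against chance. The named genes are the members, all receptors, and of each list the 2 highest means, the lowest, and those 2-fold apart with a mean of 5 FPKM or more; leukocyte markers and genes of the chemokine cluster may also be named. Other markers, CASP1, PYCARD, NLRP1, IL18BP, TLR3, REL, CLCF1, TNF, IL1B and the neighbours of IL18 were named with their values known. Members and lists were chosen with earlier results of these data known. Computations used Python 3.11.15, numpy 2.4.6 and pandas 2.3.3.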

Additional observations from a re-analysis of the deposited data

How the results depend on the processing

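At 0.5 FPKM 5 members passed in both libraries and at 5 FPKM 1 did, against 3 at 1 FPKM; 2 had lower bounds at 1 or more in both, and each library alone gave 4. IL18 was the single member at least 2-fold apart under every alternative run (2 other pseudocounts, 2 rescalings, FAIL as 0, no filter, 1.5-fold, 4-fold, bounds apart), with a log2 ratio between -5.60 and -2.94, and the median of the members stayed below 0. Added after the data were seen, the same alternatives left 92 of 108 counts over the other lists within 1.5 times and moved 16. The 92 include every count for other chemokines, leukocyte markers and endothelial markers. In those lists no gene had a mean of 1 FPKM and all counts were 0, so they could hardly move. LIFR was no longer counted with a pseudocount of 5 or after the median ratio was divided out. Among NF-kappaB genes 4 were 2-fold apart with a pseudocount of 0.1 (3 higher in PJ, 1 lower), and 3 under either rescaling (2 higher, 1 lower), against 2. Among inducing receptors and adaptors 1 was 2-fold lower in PJ with no filter or after rescaling without short genes and the mitochondrial genome, and 1 higher with a pseudocount of 0.1, against 0. No paired analysis was possible because there is 1 group. A ratio needs both libraries, so leaving 1 out gave no ratio. The unknown depth limits the members under 1 FPKM, whose bounds overlapped between libraries.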
